A study of Mus musculus with 9 samples.

Results

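Described here are 9 genes of cholesterol export and its nuclear receptor control in mouse macrophages, of 15343 genes in the table. They were taken by symbol: the liver X receptors (LXR) Nr1h3 and Nr1h2, the sterol exporters Abca1 and Abcg1, the lipid carrier genes Apoe and Pltp, the LXR targets Mylip and Lpcat3, and the cholesterol-esterifying enzyme Soat1. All 9 were found, and all 9 had enough counts to be among the 13895 genes tested. RNA was sequenced from primary intraperitoneal macrophages of the strain written CF7B1/6, marked WT in the titles, with 3 libraries in each of 3 groups. Every group received lipopolysaccharide (LPS), the bacterial product sensed by TLR4, at 100 ng/ml for 6 h. The LPS group has no pretreatment in its labels. The DHA + LPS group first received the omega-3 fatty acid docosahexaenoic acid (DHA) at 100 µM for 1 h, and the cpdA + LPS group a small-molecule agonist of the fatty acid receptor Gpr120, cpdA, at 10 µM for 1 h. No library without LPS was analysed here, so each comparison lies within the LPS-stimulated state. The labels do not say whether replicates came from separate mice or cultures, so p-values measure the spread between these libraries, which may be technical.

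LXRs are nuclear receptors that bind oxysterols and sit on DNA with a partner, RXR, often on a pair of direct repeats spaced by 4 bases (DR4). Without ligand they hold corepressors, and with ligand they raise genes that move cholesterol out of the cell. In macrophages, Abca1 hands cholesterol to lipid-poor apolipoprotein A-I and Abcg1 hands it to high-density lipoprotein, while Soat1 stores the excess as cholesteryl ester. LXR ligands are also known for lowering inflammatory genes in these cells.

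The promoters of Abca1 and Mylip are shown because these are the genes of the set, among those with a RefSeq promoter entry, that were called lower in a fit described below. RefSeq promoter entries (build GRCm38.p6) matched 8 of the 9 genes. The 250 bases before the start site were searched on both strands for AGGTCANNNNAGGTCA, the DR4 consensus, allowing at most 3 mismatches among its 12 defined bases, a limit set after the first matches were seen. Abca1 lies at chr4:53159896-53160145 on the minus strand and Mylip at chr13:45389492-45389741 on the plus strand, with the 16 bases of the match in capitals.
Abca1: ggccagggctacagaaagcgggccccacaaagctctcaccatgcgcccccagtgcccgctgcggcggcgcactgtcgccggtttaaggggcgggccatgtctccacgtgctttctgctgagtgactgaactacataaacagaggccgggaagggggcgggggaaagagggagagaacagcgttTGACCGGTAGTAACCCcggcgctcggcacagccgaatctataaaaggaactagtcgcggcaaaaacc
Mylip: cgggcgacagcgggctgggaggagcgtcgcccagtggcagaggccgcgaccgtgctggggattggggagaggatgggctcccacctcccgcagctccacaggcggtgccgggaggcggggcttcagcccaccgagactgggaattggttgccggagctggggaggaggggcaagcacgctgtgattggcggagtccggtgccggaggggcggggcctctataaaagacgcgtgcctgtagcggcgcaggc
The match in Abca1 begins 67 bases before the start site and has 3 mismatches. It was the 1 match among the 8 genes, and 18.5% of the 32851 promoter entries held a match at that limit. No match in Mylip says only that these letters are not in this window.

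The libraries differed in ways that the groups do not explain. Recovered depth ran from 13797079 to 37572822 reads. Libraries are named by group and replicate number, so DHA 1 is library 1 of DHA + LPS. At equal depth, the closest pair was DHA 1 and cpdA 1, whose spread was 1.15 times sampling noise, against 1.33 for LPS 1 and LPS 2, and the pair belongs to different groups. DHA 1 and cpdA 2 (1.62) and DHA 3 and cpdA 2 (1.72) were also closer than any pair within a pretreated group (1.79 at the least). Labels were used as given, and whether DHA 1 or cpdA 1 is mislabelled was not tested. By the same measure cpdA 3 was 4.28 and 4.30 from the other cpdA libraries, and LPS 3 was 3.08 from each of LPS 1 and LPS 2. Results are therefore given for all 9 libraries, without cpdA 3 and LPS 3, and without DHA 1 and cpdA 1. All 10 macrophage markers measured were detected in every library, from Timd4, at 25.4 to 203 normalized counts, to Lyz2, which encodes lysozyme, at 210386 to 459826. The summed normalized counts of 10 macrophage markers ran from 352116 to 604775, with LPS 3 and cpdA 3 lowest. Of other cell types, 11 stromal markers summed to 25091 to 42409 in LPS, 27085 to 29381 in DHA + LPS and 28318 to 30723 in cpdA + LPS, with the highest sum in LPS 3. The 4 neutrophil markers measured summed to 7332 to 8534 in LPS, 5232 to 6563 in DHA + LPS and 3561 to 6290 in cpdA + LPS, most of it from Csf3r. The 5 mast cell markers measured summed to 241 to 306 in LPS, 142 to 163 in DHA + LPS and 159 to 356 in cpdA + LPS, and the 8 B and T cell markers to 291 to 398 over all libraries. No marker measured was at 0 in every library. In bulk RNA, fewer cells of a type and less RNA per cell cannot be told apart.

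With all 9 libraries, the exporters Abcg1 and Abca1 had the lowest log2 differences from LPS after either pretreatment, at -0.94 and -1.09 for Abcg1 and -0.47 and -0.46 for Abca1. In the fit that leaves out cpdA 3 and LPS 3, Mylip (-0.61 and -0.58) stood below Abca1 (-0.58 and -0.54). With all 9, the differences of the receptors, the lipid carriers and Lpcat3 lay between -0.30 and 0.06. None of the 9 genes passed the test in any of the 3 comparisons with all 9 libraries (limma, Benjamini-Hochberg adjusted over 13895 genes). Of the background, 0.0072% of all genes tested were called for DHA + LPS and 0.0072% for cpdA + LPS, and 0 for cpdA + LPS against DHA + LPS. An unadjusted limma p under 0.05 was reached by 3 of the 9 genes for DHA + LPS (Abca1, Abcg1 and Nr1h3), against 14.2% of all genes, and by 2 for cpdA + LPS (Abca1 and Abcg1), against 14.6%. It was reached by 0 of the 9 between the pretreatments, against 1.02%. edgeR on the recovered reads called 0 of the 9 in each comparison, against 0.0216% of all genes for DHA + LPS (0.0144% higher) and 0.0072% for cpdA + LPS. DESeq2 called 0, 1 and 0 of the 9, against 2.31%, 3.26% and 0 of the genes it gave an adjusted p.

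**Figure D1:**
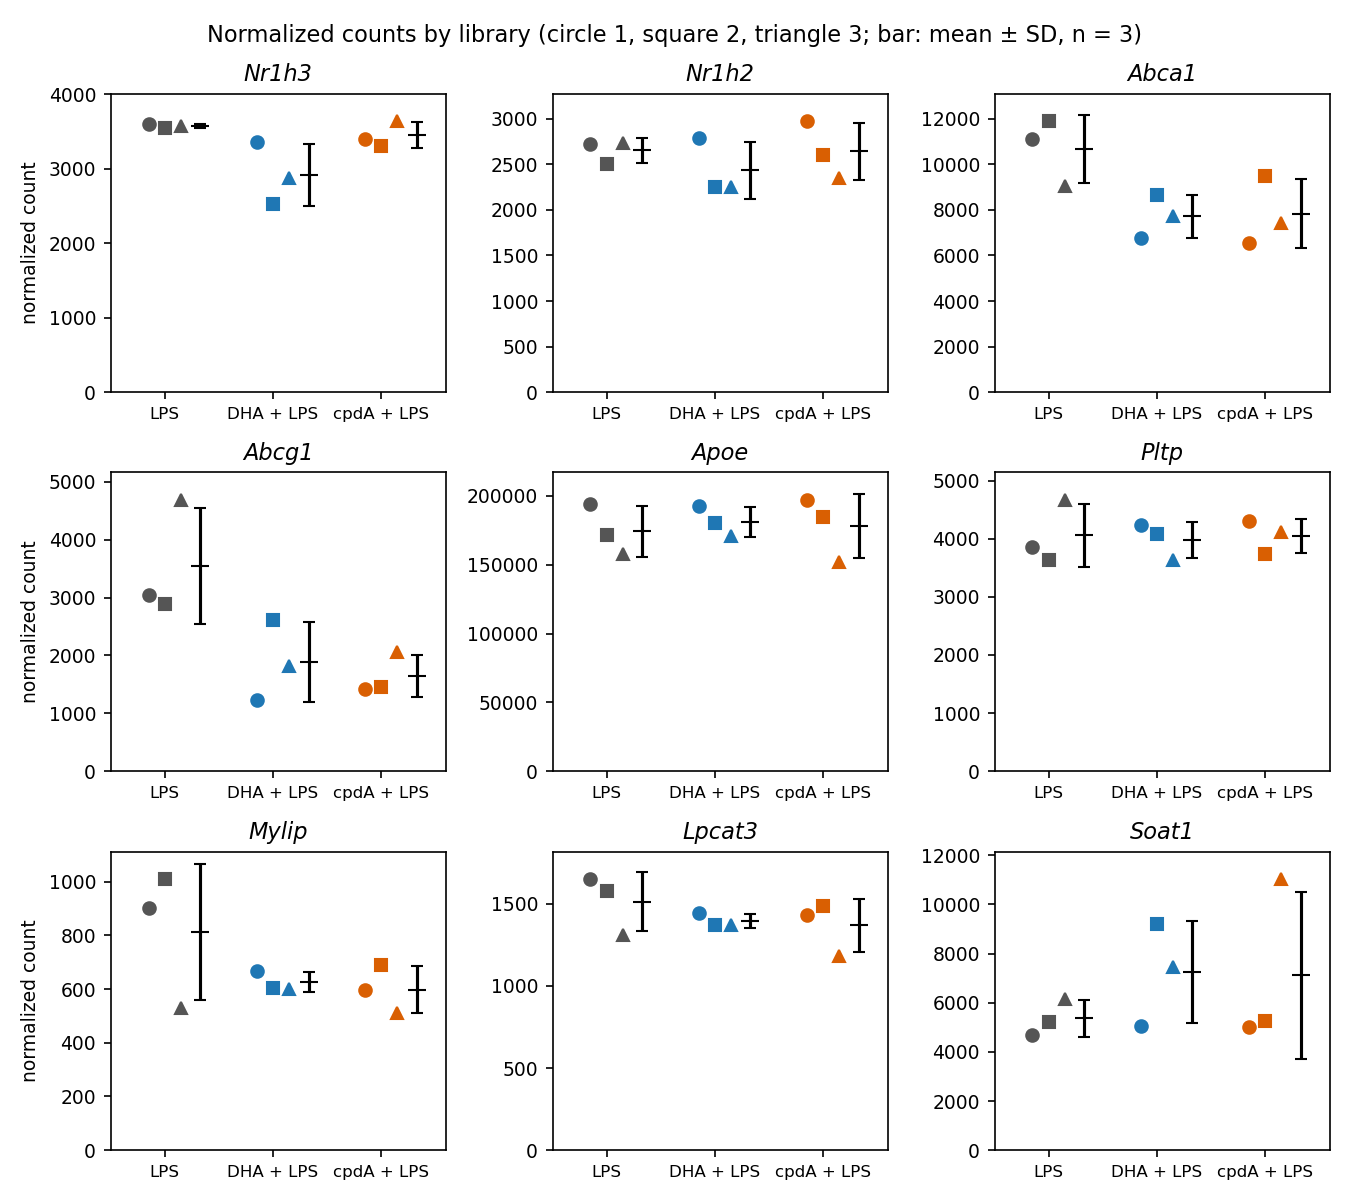
Normalized count (y axis, from 0) of each of the 9 genes in the 9 libraries, by group (x axis), with symbols for the replicate numbers and a bar for the mean ± SD (n = 3). All 6 pretreated libraries lie below the 3 LPS libraries for Abcg1, and Soat1 is spread from 5015 to 11046 within cpdA + LPS.

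Of the receptors, Nr1h3 encodes LXRalpha, the form enriched in macrophages and liver. Libraries 1 to 3 of LPS held 3598, 3547 and 3578 normalized counts, those of DHA + LPS held 3353, 2519 and 2872, and those of cpdA + LPS held 3393, 3304 and 3644. The LPS libraries lay within a narrow band, every DHA library lay below it, and the cpdA libraries lay on both sides. The log2 change with DHA was -0.30 (SE 0.11, 95% interval -0.56 to -0.05; limma adjusted p = 0.295), and with cpdA it was -0.05 (SE 0.11, interval -0.31 to 0.20; limma adjusted p = 0.865). Nr1h2 encodes LXRbeta, the form present in most tissues. It ran from 2500 to 2736 in LPS, from 2253 to 2793 in DHA + LPS and from 2354 to 2980 in cpdA + LPS, so the groups overlapped. Its change was -0.13 with DHA (SE 0.12; limma adjusted p = 0.639) and -0.01 with cpdA (SE 0.12; limma adjusted p = 0.977).

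Abcg1 (Entrez gene 11307) had the largest difference of the 9 genes. In LPS libraries 1 to 3 there were 3041, 2882 and 4692 normalized counts, in the DHA + LPS series 1226, 2617 and 1816, and in the cpdA + LPS series 1422, 1455 and 2059. Every pretreated library was below every LPS library, although DHA 2 was close to LPS 2. The mean was 3539 ± 1002 in LPS, 1887 ± 698 in DHA + LPS and 1645 ± 359 in cpdA + LPS (SD, n = 3). The log2 change was -0.94 with DHA (SE 0.29, 95% interval -1.60 to -0.28; limma adjusted p = 0.263) and -1.09 with cpdA (SE 0.29, interval -1.75 to -0.43; limma adjusted p = 0.224), which is 0.522 and 0.470 times the LPS level. DESeq2 called the cpdA value (-1.10, adjusted p = 0.0202) and not the DHA value (adjusted p = 0.0895), and edgeR called neither (adjusted p = 0.214 for cpdA). LPS 3 held the highest Abcg1 level and also the highest stromal marker sum. Without LPS 3 the change was -0.72 with DHA and -0.87 with cpdA. The DHA change was -0.66 without DHA 1 and -1.21 without DHA 2, so these libraries move it most. The neutrophil marker sum was likewise lower in all 6 pretreated libraries than in LPS, through Csf3r, while S100a8 was at 72 to 255 in LPS and at 303 to 381 in the pretreated libraries other than cpdA 3 (44.4). Their part in the result was not tested.

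Abca1 (Entrez gene 11303) was the other exporter measured, and its differences were smaller. Libraries 1 to 3 of LPS held 11093, 11915 and 9034 normalized counts, those of DHA + LPS held 6752, 8657 and 7750.1, and those of cpdA + LPS held 6556, 9503 and 7407. All DHA libraries were below all LPS libraries, while cpdA 2 lay above LPS 3. The log2 change was -0.47 with DHA (SE 0.17, 95% interval -0.86 to -0.07; limma adjusted p = 0.299) and -0.46 with cpdA (SE 0.17, interval -0.85 to -0.07; limma adjusted p = 0.285). It kept its sign under each of 24 other settings, between -0.58 and -0.31 for DHA and between -0.61 and -0.26 for cpdA. Several of these settings, such as other filters or leaving out a library outside the comparison, cannot move the change itself. The number of settings is therefore no measure of how stable the sign is.

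Per kilobase of merged exons, by GENCODE M21 lengths, the level of Abca1 in LPS was 1031 ± 143 normalized counts and that of Abcg1 was 485 ± 137 (SD, n = 3). In DHA + LPS the levels were 745 ± 91.9 and 258 ± 95.7, and in cpdA + LPS 755 ± 146 and 225 ± 49.1. On this scale in LPS the order ran from Apoe (81558 ± 8653) through Pltp (1583 ± 212), Nr1h3 (1421 ± 10.2), Abca1, Nr1h2 (791 ± 40.0), Soat1 (547 ± 76.2), Abcg1 and Lpcat3 (463 ± 55.0) to Mylip (252 ± 78.3). Soat1 and Abcg1 were within 1 SD of each other, as were Abcg1 and Lpcat3. Nr1h3 was within 1 SD of Pltp by the SD of Pltp, but not by its own narrow SD. The merged exon length can exceed that of the transcript in use, which lowers a level on this scale.

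**Figure D2:**
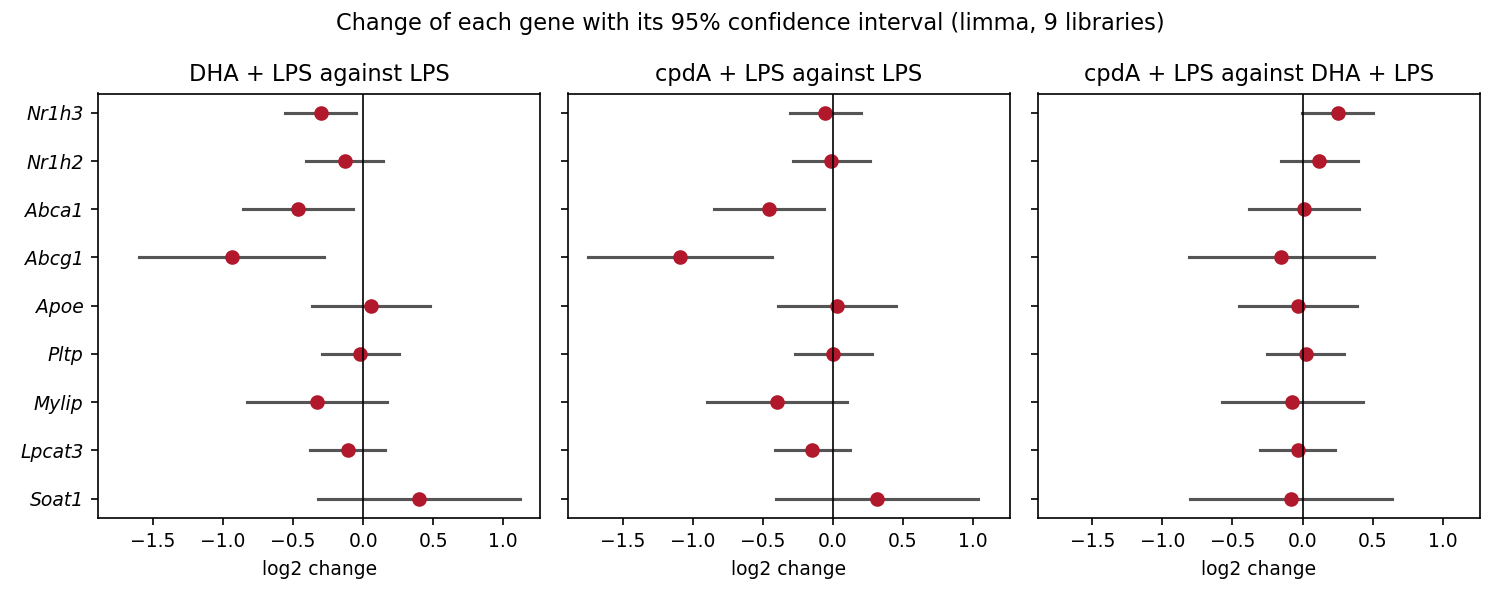
Log2 change (x axis) of each gene (y axis) in the 3 comparisons, as points with 95% confidence intervals from limma on 9 libraries. The intervals of Abca1 and Abcg1 lie below 0 against LPS for both pretreatments, that of Nr1h3 for DHA, and every interval between the pretreatments includes 0.

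Apoe encodes apolipoprotein E, which macrophages secrete and which takes up exported cholesterol. It ran from 157592 to 194212 normalized counts in LPS, from 170747 to 192395 in DHA + LPS and from 152240 to 197341 in cpdA + LPS. The 3 ranges covered each other, with changes of 0.06 with DHA (95% interval -0.36 to 0.48; limma adjusted p = 0.912) and 0.03 with cpdA (interval -0.39 to 0.45; limma adjusted p = 0.963). Pltp encodes the phospholipid transfer protein, which passes phospholipid between lipoproteins. It ran from 3639 to 4672 in LPS, from 3638 to 4233 in DHA + LPS and from 3730 to 4302 in cpdA + LPS, with its highest value in LPS 3. Its changes were -0.02 with DHA (interval -0.29 to 0.25) and 0.00 with cpdA (interval -0.27 to 0.28). Neither carrier passed the test, and smaller shifts inside these intervals are not excluded.

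Mylip encodes the ubiquitin ligase IDOL, through which LXR lowers lipoprotein uptake. Counts in LPS libraries 1 to 3 were 902, 1012 and 529 after normalization, those of DHA + LPS were 669, 606 and 602, and those of cpdA + LPS were 596, 689 and 512. LPS 1 and LPS 2 were above every pretreated library, but LPS 3 was below all of them except cpdA 3. The log2 change was -0.33 with DHA (SE 0.22; limma adjusted p = 0.516) and -0.40 with cpdA (SE 0.22; limma adjusted p = 0.429). Without LPS 2 these were -0.14 and -0.22, and without LPS 3 -0.61 and -0.68. Lpcat3 encodes the enzyme that places polyunsaturated fatty acids in phosphatidylcholine. It ran from 1311 to 1653 in LPS, from 1370.0 to 1447 in DHA + LPS and from 1183 to 1488 in cpdA + LPS, with changes of -0.11 and -0.15 (limma adjusted p = 0.691 and 0.598).

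Soat1 was the 1 gene of the set with a positive change above 0.3 for both pretreatments, and it was uneven within the pretreated groups. Libraries 1 to 3 of LPS held 4692, 5214 and 6164 normalized counts, those of DHA + LPS held 5063, 9204 and 7435, and those of cpdA + LPS held 5015, 5270 and 11046. DHA 1, cpdA 1 and cpdA 2 lay within the LPS range, and DHA 2, DHA 3 and cpdA 3 lay above it. The change was 0.40 with DHA (SE 0.32; limma adjusted p = 0.583) and 0.32 with cpdA (SE 0.32; limma adjusted p = 0.679). Without cpdA 3 the cpdA value was -0.05, so it rests on that library, and the DHA value was 0.20 without DHA 2 and 0.64 without DHA 1.

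**Figure D3:**
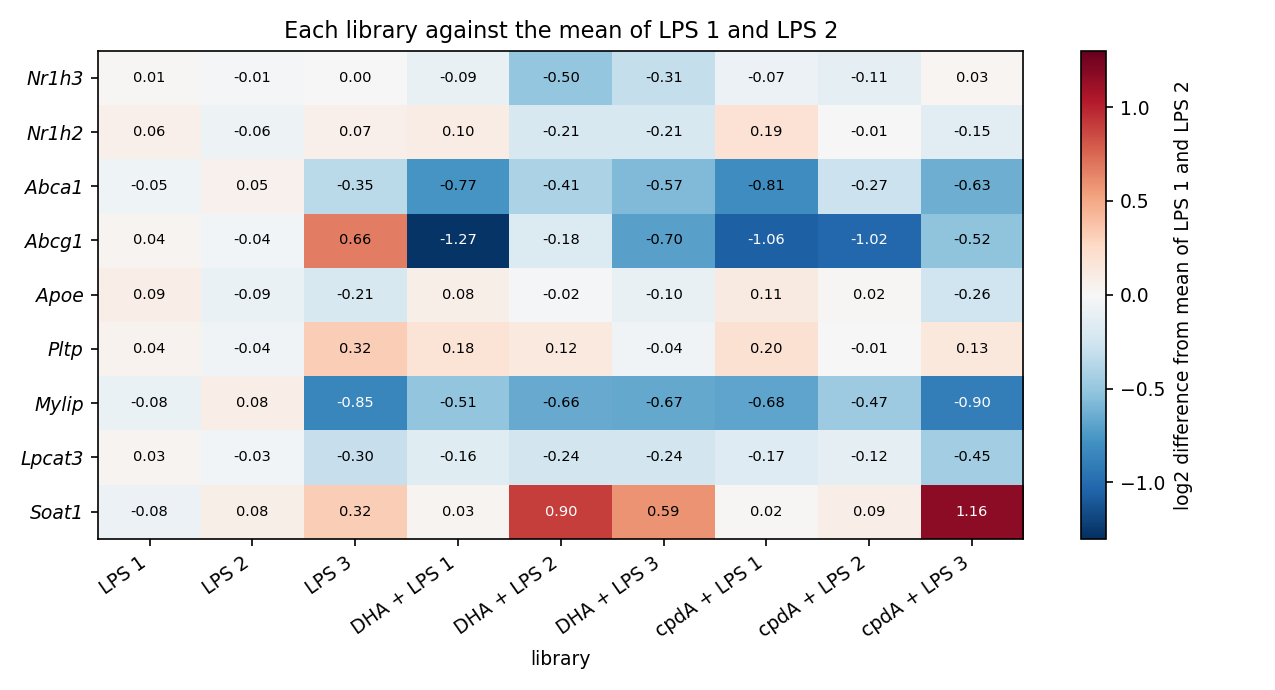
Log2 difference of each library (x axis) from the mean of LPS 1 and LPS 2 for each gene (y axis), with the value in each cell and blue for lower. Mylip is -0.85 in LPS 3 and -0.90 in cpdA 3, Abcg1 is 0.66 in LPS 3 and negative in all 6 pretreated libraries, and Soat1 is 1.16 in cpdA 3.

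Counted by separation of the groups, 3 of the 9 genes (Abca1, Abcg1 and Nr1h3) had all DHA libraries below all LPS libraries, against 15% of all genes tested. For cpdA this held for 1 of 9 (Abcg1), against 12.2%. None of the 9 had all pretreated libraries above LPS, against 13% for DHA and 10.7% for cpdA. The median change over the 9 genes was -0.13 with DHA and -0.05 with cpdA (-0.21 and -0.09 without cpdA 3 and LPS 3), and that over all genes tested was -0.00067 and -0.0043.

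Without cpdA 3 and LPS 3, a choice known from earlier results of these data, 2 of the 9 genes were called lower with DHA, where 4.04% of all genes were, with 2.75% called higher and 6.79% either way. Abca1 fell by 0.58 (SE 0.15; limma adjusted p = 0.0462) and Mylip fell by 0.61 (SE 0.10; limma adjusted p = 0.00486). The only controls in this fit were LPS 1 and LPS 2, the closest pair within any group, at 1.33 times sampling noise. Its SEs therefore leave out the spread that LPS 3 and cpdA 3 bring. With cpdA, Mylip fell by 0.58 (SE 0.11; limma adjusted p = 0.0233), where 0.885% of all genes were called lower, 0.712% higher and 1.6% either way. The test of any difference among the 3 groups called 1 of the 9, against 3.27% of all genes. Mylip was at 529 in LPS 3, the control left out, and without LPS 3 alone Mylip was not called (-0.61 and -0.68, limma adjusted p = 0.276 and 0.223). The macrophage marker sum was also lowest in LPS 3 and cpdA 3, mostly through Lyz2, and the other markers went both ways. Cd68, Fcgr1 and Msr1 were highest of all libraries in LPS 3, where Emr1 (29157), Itgam (6345) and Csf1r (7572) were lowest. Csf1r and Gata6 were highest in cpdA 3, where Fcgr1 (957), Msr1 (16667), Cd14 (12490) and Timd4 (25.4) were lowest. The part of cell makeup in the Mylip values was not tested. Abcg1 was not called there (-0.72, limma adjusted p = 0.235 with DHA, and -1.04, limma adjusted p = 0.310 with cpdA). Without DHA 1 and cpdA 1, 0 of the 9 genes and 0 of all genes were called in each comparison, and the changes of Abcg1 were -0.66 and -0.995 and those of Abca1 were -0.37 and -0.34.

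**Figure D4:**
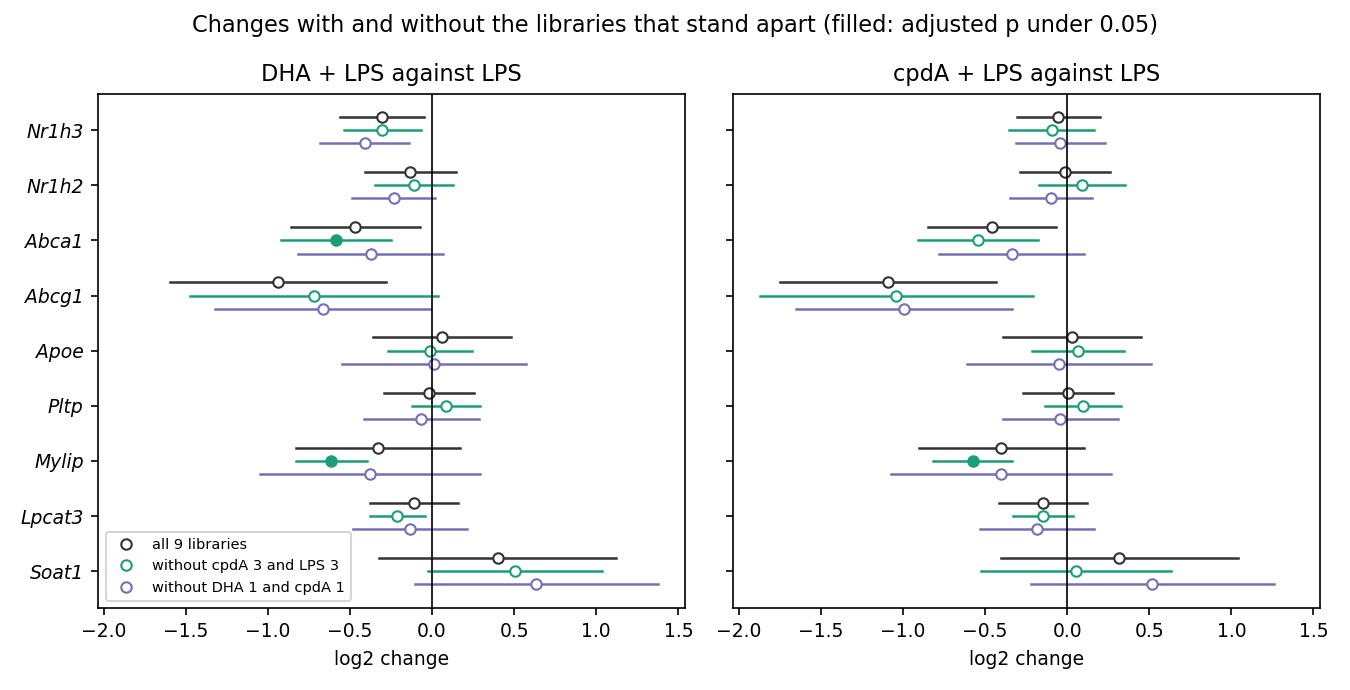
Log2 change against LPS (x axis) of each gene (y axis) with 95% confidence intervals from limma, on all 9 libraries, without cpdA 3 and LPS 3, and without DHA 1 and cpdA 1. Filled points have an adjusted p under 0.05: Abca1 and Mylip for DHA and Mylip for cpdA, all in the fit without cpdA 3 and LPS 3.

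Set directly against each other, the pretreatments did not differ past the test in any of the 9 genes. The difference, cpdA + LPS minus DHA + LPS, was 0.01 for Abca1 (95% interval -0.38 to 0.40), -0.15 for Abcg1 (interval -0.81 to 0.51) and 0.25 for Nr1h3 (interval -0.0032 to 0.50; limma unadjusted p = 0.0524, adjusted p = 1.00). All 9 genes had overlapping groups, and 5.65% of all genes did not. Differences inside these intervals cannot be told from 0 here, so the pretreatments are not shown to act alike. Both were compared with the same LPS libraries, so their changes against LPS are not independent of each other.

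Genes around LXR were read from 4 further lists, none of which had a gene called by limma with all 9 libraries. In these lists edgeR called Nrip1, and DESeq2 called some genes given below. Of 20 other LXR targets, 16 were tested. Many on this list are genes of fatty acid synthesis and desaturation, among them Srebf1, Fasn, Acaca, Scd1, Scd2, Fads1 and Fads2. Whether LXR or another regulator underlies their values was not tested. With DHA, 10 of the 16 had a negative change, with a median of -0.38, and with cpdA 14 did, with a median of -0.40. Of all genes tested, 50.2% and 50.6% had a negative change. The list's medians were -0.21 and -0.33 without cpdA 3 and LPS 3. In LPS 3 itself the list's median was -0.49 against LPS 1 and LPS 2, below that of each DHA library (-0.35 to -0.16). It was also below that of cpdA 1 (-0.31) and cpdA 2 (-0.40), though not that of cpdA 3 (-0.56). Srebf1, which encodes SREBP-1, the regulator of fatty acid synthesis, had 2606 ± 155 normalized counts in LPS, 1824 ± 221 in DHA + LPS and 1873 ± 284 in cpdA + LPS (SD, n = 3), and no pretreated library reached the LPS range. Its differences were -0.52 and -0.49 (limma adjusted p = 0.231 and 0.224), and DESeq2 called the DHA value (adjusted p = 0.0422). Without cpdA 3 and LPS 3 it fell by 0.50 with DHA (limma adjusted p = 0.0192), and 5 of the 16 targets were called lower, against 4.04% of all genes. With cpdA 3 of the 16 were, against 0.885% of all genes, and Srebf1 was not among them (limma adjusted p = 0.233).

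Other targets varied more between libraries. Scd1 and Scd2, which desaturate fatty acids, had 689 ± 174 and 3252 ± 1470.1 in LPS. The difference of Scd1 was -0.50 with DHA (limma adjusted p = 0.367) and that of Scd2 -1.22 with cpdA (limma adjusted p = 0.259; DESeq2 adjusted p = 0.0462), and LPS 3 was low for each, at 490.1 and 1558. In the 7 libraries left without cpdA 3 and LPS 3, Scd1 fell by 0.73 with DHA (limma adjusted p = 0.0182). Fads2, the delta-6 desaturase, had a difference of -1.02 with cpdA (limma adjusted p = 0.242), with LPS 3 at 146 and the other controls at 261 and 272. Without cpdA 3 and LPS 3 it fell by 0.98 (limma adjusted p = 0.0151). Mertk, a receptor for engulfing dead cells, had a difference of -0.47 with DHA (limma adjusted p = 0.343), and of -0.25 without those libraries. Between the pretreatments, Fads2, Scd2 and the delta-5 desaturase Fads1 differed most by p in this list, by -0.54, -0.70 and -0.26, each with a limma adjusted p of 1.00, and by -0.22, -0.38 and -0.34 without cpdA 3 and LPS 3.

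Of 16 receptor partners and cofactors, 15 were tested, with a median change of -0.10 for DHA and -0.06 for cpdA. Without cpdA 3 and LPS 3 the medians were 0.03 and 0.03. Nrip1 had the smallest p of the list in each comparison. It encodes RIP140, a cofactor that LXR and other nuclear receptors recruit. Libraries 1 to 3 of LPS held 629, 562 and 548 normalized counts, those of DHA + LPS held 328, 305 and 292, and those of cpdA + LPS held 341, 362 and 303. The pretreated libraries formed a band well below LPS, with LPS 3 and cpdA 3 close to the other libraries of their groups. The change was -0.91 with DHA (SE 0.11; limma adjusted p = 0.0547) and -0.79 with cpdA (SE 0.11; limma adjusted p = 0.0813). The edgeR test on recovered reads called the DHA value (adjusted p = 0.0417) and not the cpdA value (adjusted p = 0.0669), and DESeq2 called each (adjusted p = 2.1e-08 and 1.2e-06). When cpdA 3 and LPS 3 were left out it fell by 0.95 with DHA and fell by 0.76 with cpdA (limma adjusted p = 0.000675 and 0.0076). Without DHA 1 and cpdA 1 the changes were -0.96 and -0.80 (limma adjusted p = 0.307 and 0.354).

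The other cofactors named had smaller differences. Ncoa3, a coactivator, had 4128 ± 781 in LPS, 3203 ± 201 in DHA + LPS and 3224 ± 251 in cpdA + LPS (limma adjusted p = 0.312 and 0.303), and its differences of -0.35 and -0.34 were -0.20 and -0.13 without cpdA 3 and LPS 3. Hdac3, the deacetylase of the corepressor complex, had a difference of -0.18 with DHA (limma adjusted p = 0.319). Between the pretreatments, Nrip1, Tbl1xr1, a part of the corepressor complex, and the histone methyltransferase Mll2 differed by 0.12, -0.13 and 0.11, each with a limma adjusted p of 1.00, and by 0.19, -0.15 and 0.21 without cpdA 3 and LPS 3.

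Of 8 enzymes of oxysterol and sterol metabolism, 6 were tested. Ch25h, which makes 25-hydroxycholesterol, was uneven among the controls. Libraries 1 to 3 of LPS held 522, 583 and 1456 normalized counts, those of DHA + LPS held 323, 262 and 282, and those of cpdA + LPS held 344, 401 and 283. No pretreated library reached LPS 1, and LPS 3 was far above the other controls. The change was -1.40 with DHA (SE 0.34; limma adjusted p = 0.219) and -1.17 with cpdA (SE 0.34; limma adjusted p = 0.230). DESeq2 called each (adjusted p = 0.00392 and 0.0183). Leaving out cpdA 3 and LPS 3, it fell by 0.94 with DHA (limma adjusted p = 0.00157), and the cpdA value was -0.57 (limma adjusted p = 0.0683). Cyp51, of cholesterol synthesis, had differences of -0.55 and -0.91 (limma adjusted p = 0.519 and 0.317), with LPS 3 at 3245 and the other controls at 6900 and 6937. In the fit without cpdA 3 and LPS 3 it fell by 0.92 and fell by 0.88 (limma adjusted p = 0.0008 and 0.0043). Cyp7b1, which clears oxysterols, had a difference of -0.64 with DHA (limma adjusted p = 0.412), and Hsd3b7, an enzyme of bile acid synthesis, had a difference of 0.46 with cpdA (limma adjusted p = 0.483). LPS 3, at 706 for Cyp7b1, and cpdA 3, at 1774 for Hsd3b7, stood apart from the rest of their groups, and without both libraries the values were -0.25 and 0.05. Between the pretreatments Cyp7b1 differed by 0.55 and Cyp51 by -0.36, each with a limma adjusted p of 1.00, and by 0.29 and 0.04 without cpdA 3 and LPS 3.

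All 23 other genes of sterol handling were tested, with a median change of 0.11 with DHA and 0.04 with cpdA. Npc1, which moves cholesterol out of lysosomes, had 4649 ± 245 normalized counts in LPS, 6337 ± 734 in DHA + LPS and 6333 ± 1187 in cpdA + LPS (SD, n = 3). All 6 pretreated libraries lay above LPS, with changes of 0.44 and 0.43 (limma adjusted p = 0.277 and 0.253), and without cpdA 3 and LPS 3 it rose by 0.40 with DHA (limma adjusted p = 0.0372) and stood 0.24 higher with cpdA (limma adjusted p = 0.430). Osbpl2, an oxysterol-binding protein family member, had a difference of 0.36 with DHA (limma adjusted p = 0.233; DESeq2 adjusted p = 0.0486), and Abca5, a transporter of the same family as Abca1, had a difference of 0.98 with cpdA (limma adjusted p = 0.230) at a mean of 35.03 ± 5.75 in LPS. Stard4, a carrier of cholesterol, had a difference of -0.34 with DHA (limma adjusted p = 0.293), and without cpdA 3 and LPS 3 it fell by 0.47 (limma adjusted p = 0.0122). LPS 3, at 782 for Stard4, lay within the DHA range of 689 to 792. Between the pretreatments Osbpl2, Abca7 and Apoa1bp differed by -0.18, 0.21 and 0.11, each with a limma adjusted p of 1.00.

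**Figure D5:**
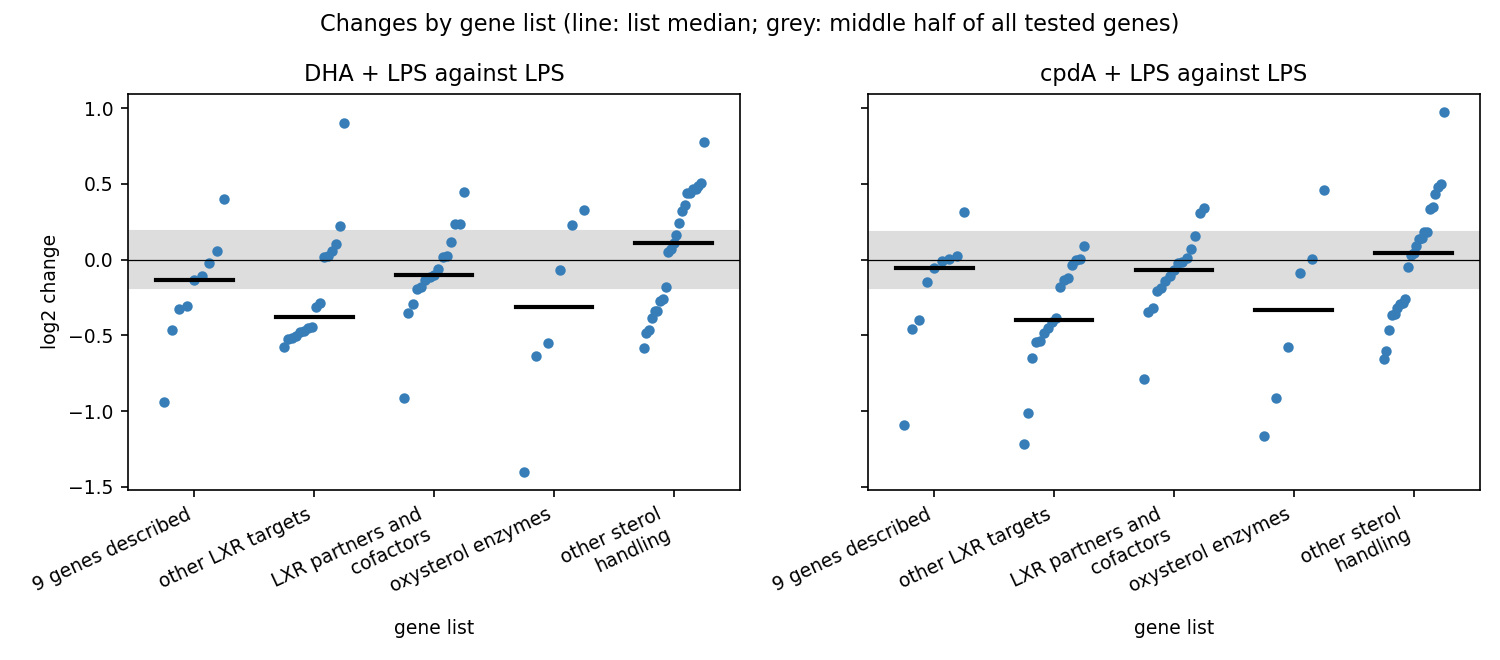
Log2 change against LPS (y axis) of each tested gene in the 9 genes described and 4 further lists (x axis), with a line at each list's median and a grey band from the lower to the upper quartile of all genes tested. The medians of other LXR targets are -0.38 and -0.40 and those of other sterol handling genes 0.11 and 0.04.

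Genes whose levels followed those of 3 members most closely were ranked by Pearson correlation of log2 levels over the 9 libraries, among 11363 genes with a mean of at least 50. For Abca1 these were Vdac2 (r = 0.93), Scd1 (0.92), Fgfr1op2 (0.91), Acsl4 (0.90) and Rbm34 (0.90). For Abcg1 they were Lsm6 (0.98), Mtmr11 (0.96), Bmp2 (0.95), Slc6a6 (0.95) and Uvrag (0.94). For Nr1h3 they were Tnpo2, Slc16a3, Gm20899 and Gm5506 (0.94 to 0.92), and the counts of the predicted genes Gm20899 and Gm5506 are uncertain where copies share reads. Among the 9 genes themselves, r with Abca1 was 0.63 for Abcg1 and 0.74 for Mylip, at ranks 422 and 128, and r between Abcg1 and Mylip was 0.11. The 9 points share library effects of LPS 3 and cpdA 3, and the values are a description.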

How the data were processed

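Sample titles gave the group of each of the 9 RNA-seq libraries. Each entry of the deposited table is a signal: a read count scaled by the authors with a size factor for that library, judged from the values themselves. The submitters' processing notes name CASAVA 1.8.2, Bowtie2, DESeq and mm9. No counter, annotation, library kit or strand setting is named in those sources, and so reads of overlapping or antisense genes may be mixed. Protocol texts on growth and extraction concern neural stem cells and chromatin, and nothing was taken from them. Values in every library were whole multiples of 1 read's worth within 0.05 for at least 99.97% of genes, and reads were recovered from them. Depth limits precision most in DHA 1, at 13797079 reads.

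Genes with a value of at least 10 in at least 3 libraries were kept. log2(value + 1) of the deposited values was fitted in limma 3.58.1 (R 4.3.3, statmod 1.5.0) with a mean per group, trend and robust options, and Benjamini-Hochberg adjustment at 0.05 over all kept genes. Changes are on that scale. edgeR 4.0.16 (quasi-likelihood) and DESeq2 1.42.0 were run on recovered reads. The code was tested on simulated data. The genes, lists, tests and the choice to leave out cpdA 3 and LPS 3 were made with earlier results of these data known, and leaving out DHA 1 and cpdA 1 was added after seeing the data. Named were the 9 genes, the 3 with the smallest p per list and comparison, and the 5 most alike to Abca1, Abcg1 and Nr1h3. A few genes that this rule names are not reported here. Other alternatives were pseudocounts of 0.5 and 8, other filters and scalings, no trend or robust options, only the libraries compared, a threshold of 0.01, and each library left out. Same-number libraries of LPS and cpdA + LPS deviated together (correlations of 0.387, 0.234 and 0.437), which a rule of over 0.1 would count as paired. Libraries of unlike number did so too, at 0.292 for cpdA 1 with LPS 2 and 0.265 for cpdA 2 with LPS 1. Between LPS and cpdA + LPS, unlike-number pairs with LPS 3 or cpdA 3 were negative. Same-number libraries of LPS and DHA + LPS gave 0.140, -0.065 and 0.020. Those of DHA + LPS and cpdA + LPS gave 0.407, -0.345 and 0.013, while cpdA 3 with DHA 2, of unlike number, gave 0.452. Pairing by number is therefore not shown, and the labels give none. Promoter entries are of GRCm38.p6 and gene lengths of GENCODE M21, and neither gives coordinates for the mm9 files.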

Additional observations from a re-analysis of the deposited data

How the results depend on the processing

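With all 9 libraries 0 of the 9 genes were called in each comparison and in the test of any difference among the 3 groups. Without cpdA 3 and LPS 3 the counts were 2 for DHA + LPS, 1 for cpdA + LPS and 1 among the 3 groups, and with DESeq2 they were 1 for cpdA + LPS and 1 among the 3 groups. They were 0 under every other setting tried, and 0 when any single library was left out (range 0 to 0). With the replicate number as a block, 0 of the 9 genes were called in each comparison, and it changed no other call of theirs. Over the whole table limma called 1 gene for DHA + LPS and 1 for cpdA + LPS. Without cpdA 3 and LPS 3 it called 943 and 222, without DHA 1 and cpdA 1 or with the block 0 and 0, and without cpdA 3 alone 373 and 3, while DESeq2 called 315 and 391. Of 648 recomputed changes of the 9 genes, 606 kept their direction and side of the threshold, 4 passed it and 38 turned sign, all of the last from changes of at most 0.32. Other filters, the threshold of 0.01, the block, and leaving out libraries outside the comparison cannot move a change. The same holds for dropping the trend and robust options. The 606 include such changes, whose sign was fixed in advance. The changes of Abca1, Abcg1, Mylip and Lpcat3 against LPS, and those of Nr1h3, Nr1h2 and Soat1 with DHA, kept their sign throughout. For DHA against LPS, Pltp turned to 0.076 with quantile scaling and 0.086 without cpdA 3 and LPS 3, and Apoe to -0.012 there. For cpdA against LPS, Nr1h2 turned to 0.071 with quantile scaling, 0.092 without cpdA 3 and LPS 3 and 0.0015 in edgeR, and Nr1h3 to 0.064 with quantile scaling. Apoe and Pltp turned to -0.051 and -0.042 without DHA 1 and cpdA 1, an alternative chosen after seeing the data. For cpdA against DHA, without cpdA 3 and LPS 3, Mylip, Apoe and Lpcat3 turned to 0.036, 0.078 and 0.066. With single libraries left out, the DHA changes ran from -0.012 to 0.14 for Apoe and -0.094 to 0.086 for Pltp. The cpdA changes ran from -0.10 to 0.069 for Nr1h2, -0.051 to 0.14 for Apoe, -0.071 to 0.11 for Pltp and -0.050 to 0.52 for Soat1. The differences between pretreatments ran from -0.14 to 0.13 for Abca1, -0.43 to 0.12 for Abcg1, -0.18 to 0.036 for Mylip, -0.11 to 0.078 for Apoe, -0.10 to 0.066 for Lpcat3, -0.041 to 0.081 for Pltp and -0.45 to 0.12 for Soat1. The cause of these turns was not tested. Of the 9 genes Mylip in DHA 1 had the lowest recovered count, 300 reads.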
